A study of Arabidopsis thaliana with 22 samples.

Results

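The WRKY transcription factors are one of the largest families of plant regulators, and 58 genes of this family were followed here through salt treatment of *Arabidopsis thaliana* seedlings. The members were the 58 genes of a fixed list of gene identifiers, and all 58 were found among the 33602 genes of the count table. Each of the 58 had enough counts to be tested, among 21831 genes tested in all. Whole seedlings of the wild type (WT, Col-0) and of *lrx345* were sampled before NaCl treatment (0 h) and after 6, 24 and 72 h of it. The concentration of NaCl is 150 mM in the labels. The study's methods give an age of 10 days for seedlings before and after 6 h in NaCl, and do not describe those of 24 h and 72 h. The *lrx345* mutant carries mutations in *LRX3*, *LRX4* and *LRX5* together. These 3 genes encode leucine-rich repeat extensins, proteins of the cell wall. RNA-seq gave 22 libraries, 2 of each genotype at 0 h and 3 of each genotype at each later time. The *lrx345* mutant carries the same mutations at every time point, and untreated seedlings at 6, 24 or 72 h were not analysed here. A change from 0 h can therefore not be told apart from a change with age or time of day.

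WRKY proteins are named after a stretch of tryptophan, arginine, lysine and tyrosine residues in their DNA-binding domain, which also holds a zinc finger. They bind the W-box, a short DNA element with the core TTGAC, which is found upstream of many defence genes and of many *WRKY* genes themselves. Members of group I have a pair of such domains, those of groups II and III have a single domain, and group II is split into IIa to IIe by sequence. Many members are known from responses to pathogens and salicylic acid (SA), others from senescence, phosphate supply, drought, salt and seed development. Both activators and repressors occur in the family.

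The codons of the namesake heptad were read from the TAIR10.1 genome of RefSeq with the RefSeq gene models. They are shown because they define the family, and their copy number sets group I apart from the other groups. All 10 members of group I held 2 copies, and the other 48 members held 1. The 21 bases of *WRKY33* (both copies), *WRKY40*, *WRKY70*, *WRKY38*, *WRKY51* and *WRKY50* are given 5′ to 3′, with the codon of the sixth residue in capitals.
*WRKY33*, N-terminal copy: tggagaaagtacggaCAAaaa
*WRKY33*, C-terminal copy: tggagaaaatacggcCAGaaa
*WRKY40*: tggaggaaatatggaCAGaaa
*WRKY70*: tggaggaaatatggaCAAaag
*WRKY38*: tggaggaaatatggtCAAaag
*WRKY51*: tggaggaagtatggcAAGaaa
*WRKY50*: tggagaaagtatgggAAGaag
The capital codon stands for glutamine in *WRKY33*, *WRKY40*, *WRKY70* and *WRKY38*, and for lysine in *WRKY50* and *WRKY51*. The last pair of genes, which are known to act in the repression of jasmonate responses by SA, had unlike transcript levels here, as described below for group IIc.

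The 250 bases before the annotated gene start of 6 members are shown next, because the family is known to bind W-boxes of its own genes. *WRKY33*, *WRKY70*, *WRKY38*, *WRKY51* and *WRKY40* were higher in *lrx345* at every time, and *WRKY60* passed both thresholds at no time. The sequences are of TAIR10, are read along the strand of the gene, and have the W-box core in capitals, as TTGAC or, where it lies on the other strand, as GTCAA.
*WRKY33* (chr2:16108111-16108360, plus strand): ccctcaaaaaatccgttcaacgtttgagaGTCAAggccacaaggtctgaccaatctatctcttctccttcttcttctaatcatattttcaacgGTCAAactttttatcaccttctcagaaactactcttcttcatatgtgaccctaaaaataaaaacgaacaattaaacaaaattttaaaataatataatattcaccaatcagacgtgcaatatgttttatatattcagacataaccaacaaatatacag
*WRKY70* (chr3:20910482-20910731, minus strand): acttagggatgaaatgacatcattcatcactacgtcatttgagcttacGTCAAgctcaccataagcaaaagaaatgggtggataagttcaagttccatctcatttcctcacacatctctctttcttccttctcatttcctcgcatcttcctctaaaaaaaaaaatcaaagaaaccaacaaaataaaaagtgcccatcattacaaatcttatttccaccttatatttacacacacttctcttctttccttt
*WRKY38* (chr5:7496785-7497034, minus strand): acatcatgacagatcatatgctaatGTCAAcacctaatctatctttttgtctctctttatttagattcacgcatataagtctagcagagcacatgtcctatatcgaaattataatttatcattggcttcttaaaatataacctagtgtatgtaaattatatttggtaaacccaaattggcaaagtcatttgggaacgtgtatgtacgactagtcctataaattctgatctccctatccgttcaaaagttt
*WRKY51* (chr5:25908163-25908412, plus strand): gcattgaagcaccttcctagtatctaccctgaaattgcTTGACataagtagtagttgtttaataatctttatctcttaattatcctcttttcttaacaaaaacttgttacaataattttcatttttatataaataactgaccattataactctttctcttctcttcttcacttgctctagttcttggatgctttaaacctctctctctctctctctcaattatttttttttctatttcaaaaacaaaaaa
*WRKY40* (chr1:30383441-30383690, plus strand): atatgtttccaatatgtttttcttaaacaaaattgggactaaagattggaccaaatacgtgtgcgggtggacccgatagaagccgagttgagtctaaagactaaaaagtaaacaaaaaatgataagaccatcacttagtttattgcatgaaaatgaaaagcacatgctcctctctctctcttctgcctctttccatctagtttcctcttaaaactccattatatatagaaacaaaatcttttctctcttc
*WRKY60* (chr2:10629487-10629736, plus strand): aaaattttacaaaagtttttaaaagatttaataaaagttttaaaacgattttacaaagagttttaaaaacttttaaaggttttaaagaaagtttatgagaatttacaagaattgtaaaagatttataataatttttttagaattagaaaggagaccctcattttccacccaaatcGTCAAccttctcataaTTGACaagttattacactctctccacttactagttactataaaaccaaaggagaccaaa
The core was found in 5 of these 6 windows, as 2 copies in those of *WRKY33* and *WRKY60*, and was absent from that of *WRKY40*. The presence of the core in all members is described with the transcript levels at the end.

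Libraries had 7413461 to 15047080 fragments assigned to genes. Transcript levels are given as FPKM, the fragments per kilobase of exon scaled to a common library size, computed from the counts with edgeR's TMM factors. Groups were compared in edgeR by its quasi-likelihood test, and p-values were adjusted after Benjamini and Hochberg across the 21831 genes. A member is called higher or lower where the adjusted p was under 0.05 and the fold change above 2, and fold changes are on the log2 scale with an approximate standard error (SE). Over the 4 times, the log2 fold change of *LRX3* in *lrx345* lay between -1.07 and -1.96, that of AT4G18670 between -2.41 and -2.87 and that of AT3G24480, called at 24 h only, between -0.55 and -1.33. These last 2 identifiers were taken here as those of the other genes mutated in *lrx345*. In the wild type at 72 h, replicates 1 and 3 stood further from their group than any other libraries, with a standard deviation of 0.34 and 0.35 of the members' log2 levels around the group mean. The counts at 72 h that include the wild type are given without each of them as well.

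Before NaCl treatment, 16 of the 58 members (27.6%) were higher in *lrx345* than in the wild type, where 5.28% of all genes tested were higher. A single member, *WRKY49*, was lower, where 1.14% of all genes were. After 6 h in NaCl, 26 members (44.8%) were higher and 0 were lower, against 10.2% and 1.94% of all genes. At an adjusted p under 0.05 without the fold threshold, 38 members were higher and 2 lower at 6 h, against 18.3% and 17.7% of all genes, and 4 were lower at an unadjusted p under 0.05. DESeq2 called 0 lower at 6 h with both thresholds. After 24 h, 27 members (46.6%) were higher and again only *WRKY49* was lower, with 13.3% and 4.77% of all genes. After 72 h, the numbers were 22 members (37.9%) and *WRKY49*, with 16.3% and 8.27% of all genes. Without replicate 1 or replicate 3 of the wild type at 72 h, they were 23 and 1 in either case. By the adjusted p alone, 22 members were higher and 1 lower at 0 h (10% and 8.02% of all genes), 35 and 4 at 24 h (24.3% and 28.4%) and 44 and 3 at 72 h (31.3% and 30.7%). The median log2 fold change of the 58 members was 0.35 at 0 h, 0.81 at 6 h, 0.78 at 24 h and 0.70 at 72 h, and that of all genes tested lay between -0.08 and -0.01. These are whole seedlings, so that a higher level in every cell and a larger share of cells that express the gene cannot be told apart.

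**Figure D1:**
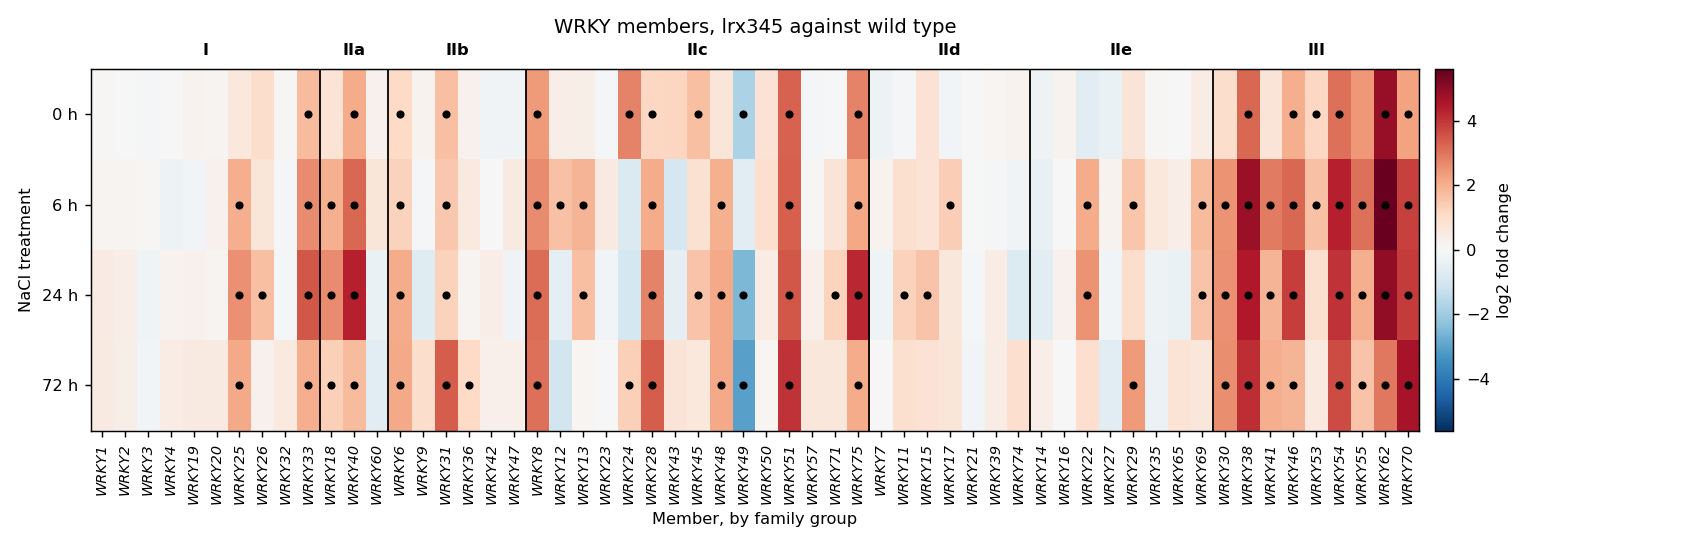
Log2 fold change of each of the 58 members in *lrx345* against the wild type (colour, red higher and blue lower in *lrx345*) at 0, 6, 24 and 72 h in NaCl (rows). Columns are members sorted by family group, and dots mark changes with an adjusted p under 0.05 and a fold above 2. All 9 members of group III carry a dot at 6 h, and *WRKY49* in group IIc is the only member with a dot on blue.

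Called at all 4 times were 13 members, namely *WRKY6*, *WRKY8*, *WRKY28*, *WRKY31*, *WRKY33*, *WRKY38*, *WRKY40*, *WRKY46*, *WRKY51*, *WRKY54*, *WRKY62*, *WRKY70* and *WRKY75*. Of all genes tested, 2.25% were higher at all 4 times. A further 20 members were higher at 1 to 3 of the times, as were 19.3% of all genes, with no call in the other direction. Just 1 member was lower, at 3 times, where 10.1% of all genes were lower at some time and higher at none, and 24 were called at no time, as were 67.1% of all genes. Of these 24, 18 passed the adjusted p at some time with a fold below 2, and 6 at no time. Group III had 5 members higher at all times and 4 higher at some, whereas group I had 7 of 10 uncalled, group IId 4 of 7 and group IIe 5 of 8. The calls of *WRKY6*, *WRKY28* and *WRKY53* at 0 h rested on a fold close to the threshold. Without replicate 2 of *lrx345* at 0 h, *WRKY6* had a log2 fold change of 0.91, and without the unnumbered library of the wild type at 0 h, *WRKY28* had 0.98 (adjusted p = 0.0689) and *WRKY53* 0.94.

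**Figure D2:**
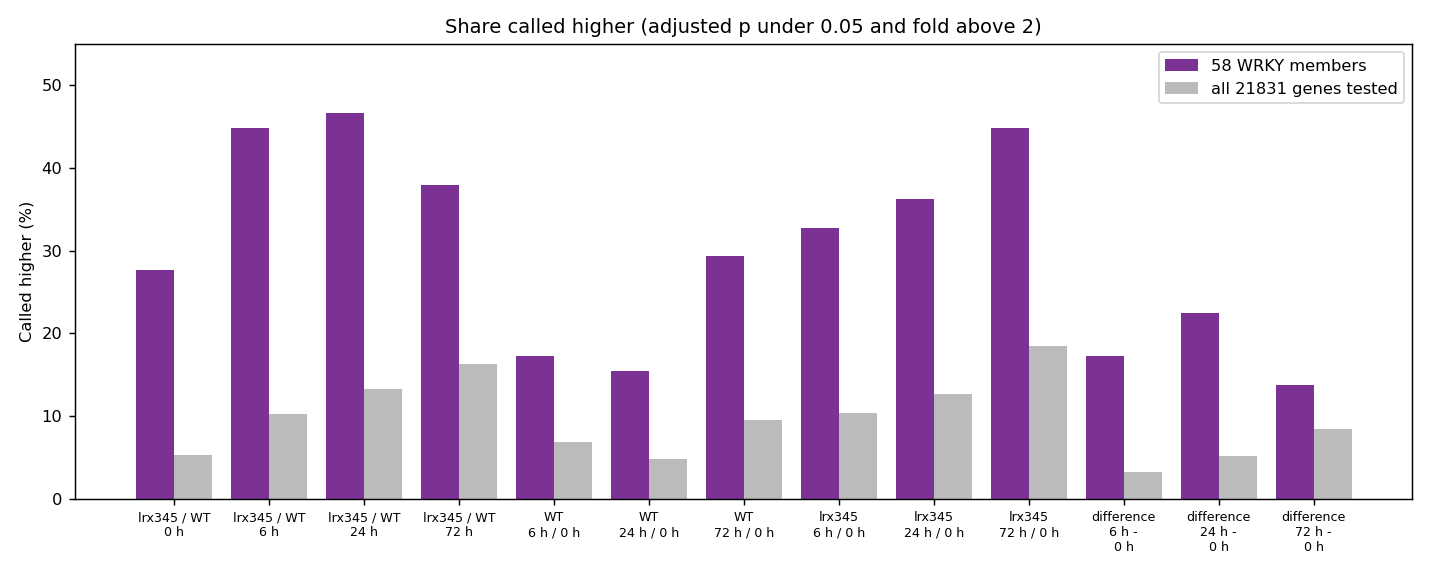
Share of the 58 members (purple) and of all 21831 genes tested (grey) called higher in each of the 13 comparisons, in percent. The first 4 pairs of bars compare *lrx345* with the wild type at one time, the next 6 compare a later time with 0 h within a genotype, and the last 3 are the genotype difference at a later time minus that at 0 h. At 24 h, 46.6% of members and 13.3% of all genes were higher in *lrx345*.

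The members of group III are known mainly from SA responses and senescence. Their summed FPKM at 0 h was 29.7 ± 1.29 in the wild type, and it was 159.7 ± 18.9 in *lrx345* (SD, n = 2 each). In the wild type it then amounted to 42.0 ± 7.27 (6 h), 41.2 ± 6.54 (24 h) and 64.9 ± 25.4 (72 h), and in *lrx345* it was 510.2 ± 89.5, 379.7 ± 32.3 and 505 ± 44.2 (n = 3 each). Libraries of the genotypes did not overlap in this sum at any time. Of the 9 members, 6 were higher in *lrx345* at 0 h, 9 at 6 h, 8 at 24 h and 8 at 72 h. The shares of all genes tested that were higher at these times were 5.28%, 10.2%, 13.3% and 16.3%.

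*WRKY70* (AT3G56400), which represses senescence and SA synthesis and activates SA-dependent defence genes, stood at 8.27 and 9.67 FPKM at 0 h, 5.14, 5.27 and 4.29 at 6 h, 5.54, 5.77 and 3.56 at 24 h, and 13.8, 8.23 and 7.13 at 72 h in the wild type. In *lrx345* it stood at 38.9 and 47.6 FPKM at 0 h, 78.7, 62.7 and 69 at 6 h, 61.1, 75.7 and 85.3 at 24 h, and 251, 219 and 257 at 72 h. All mutant libraries lay above all libraries of the wild type, and the mutant's level at 72 h was above that at every other time. The log2 fold change in *lrx345* was 2.27 (SE 0.22, adjusted p = 5.68e-08) at 0 h and 4.62 (SE 0.18, adjusted p = 2.99e-15) at 72 h. From 0 h to 6 h, *WRKY70* changed by -0.87 (SE 0.24, adjusted p = 0.00618) in the wild type, under the fold threshold, and by 0.70 (SE 0.18, adjusted p = 0.00249) in *lrx345*. The genotype difference at 6 h exceeded that at 0 h by 1.57 (SE 0.30, adjusted p = 0.00125).

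*WRKY54* (AT2G40750), the closest relative of *WRKY70* and a repressor of SA synthesis alongside it, was scarce in the wild type. It stood at 1.56 and 1.79 FPKM at 0 h, 0.782, 0.796 and 0.5 at 6 h, 0.394, 0.573 and 0.29 at 24 h, and 0.15, 0.497 and 0.0581 at 72 h there. The values of *lrx345* were 13.5 and 14.6 FPKM at 0 h, 19, 11 and 12.9 at 6 h, 6.89, 6.49 and 7.13 at 24 h, and 4.25, 1.7 and 3.17 at 72 h. The wild-type values at 72 h rest on 3, 8 and 1 counts. Levels in the wild type were highest at 0 h, and those in *lrx345* at 0 h and 6 h, in contrast to *WRKY70*. Log2 fold changes in *lrx345* were 3.07 (SE 0.32, adjusted p = 1.52e-07) at 0 h, 4.34 (SE 0.31, adjusted p = 1.41e-10) at 6 h and 3.66 (SE 0.45, adjusted p = 2.57e-07) at 72 h. Over 72 h it fell by 2.85 (SE 0.52, adjusted p = 8.63e-05) in the wild type and in *lrx345* by 2.25 (SE 0.27, adjusted p = 1.18e-07). Between 0 h and 6 h the change in *lrx345* was 0.01.

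*WRKY38* (AT5G22570) and *WRKY62* (AT5G01900) are known as repressors of basal defence that bind the histone deacetylase HDA19. *WRKY38* stood at 1.91 and 1.93 FPKM at 0 h, 7.75, 6.03 and 5.92 at 6 h, 2.68, 1.32 and 2.52 at 24 h, and 1.45, 1.96 and 1.38 at 72 h in the wild type. The *lrx345* libraries held 16 and 19.6 FPKM at 0 h, 222, 183 and 169 at 6 h, 43.2, 49 and 59.1 at 24 h, and 31.4, 19.4 and 33.2 at 72 h. A peak at 6 h stood out in both genotypes, and the lowest mutant library was above the highest of the wild type. The genotype difference was 3.2 (SE 0.29, adjusted p = 1.89e-08) at 0 h and 4.85 (SE 0.19, adjusted p = 7.72e-15) at 6 h on the log2 scale. By 6 h *WRKY38* rose by 1.78 (SE 0.31, adjusted p = 6.22e-05) in the wild type and in *lrx345* by 3.43 (SE 0.20, adjusted p = 2.29e-12).

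*WRKY62* stood at 0.809 and 1.65 FPKM at 0 h, 0.4997, 0.182 and 0.342 at 6 h, 0.27, 0.785 and 0.398 at 24 h, and 1.3, 1.28 and 0.239 at 72 h in the wild type. In the mutant it stood at 34.1 and 38.8 FPKM at 0 h, 19.8, 15.2 and 16.7 at 6 h, 12.9, 12.9 and 19.2 at 24 h, and 7.88, 5.49 and 9.06 at 72 h. The wild-type libraries held between 2 and 23 counts of this gene. Its level in *lrx345* was highest before NaCl treatment and was lower than at 0 h at each later time, unlike that of *WRKY38*. The log2 fold change in *lrx345* was 4.87 (SE 0.34, adjusted p = 4.03e-10) at 0 h, 5.55 (SE 0.37, adjusted p = 5.29e-11) at 6 h and 2.95 (SE 0.34, adjusted p = 8.06e-08) at 72 h. Within the mutant the change from 0 h was -1.09 (SE 0.22, adjusted p = 0.000318) at 6 h and -2.29 (SE 0.24, adjusted p = 1.47e-08) at 72 h. Without replicate 2 of *lrx345* at 0 h, the change at 6 h was -0.99, just under the fold threshold.

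Of the other members of group III, *WRKY46* (AT2G46400), which acts with *WRKY54* and *WRKY70* in defence and growth, was higher in *lrx345* at all times. Its FPKM was 7.14 ± 0.791 in the wild type and 29.1 ± 4.09 in *lrx345* at 0 h (n = 2 each), and 11.5 ± 4.52 and 168 ± 3.94 (n = 3 each) at 24 h. *WRKY53* (AT4G23810), a promoter of leaf senescence, differed by 1.14 at 0 h and 1.64 at 6 h on the log2 scale, and by 0.92 and 0.54, under the fold threshold, at 24 h and 72 h. *WRKY30*, *WRKY41* and *WRKY55* passed edgeR's test at the 3 later times and not at 0 h, and their log2 fold changes in *lrx345* at the later times lay between 1.58 and 3.08. At 0 h *WRKY55* had 2.43 (SE 0.91, adjusted p = 0.0668) in edgeR, and DESeq2 called it higher (adjusted p = 0.0177). *WRKY30*, known from early stress responses, also rose from 0 h to 72 h by 4.07 (SE 0.39, adjusted p = 1.76e-08) in the wild type and in *lrx345* by 5.65 (SE 0.34, adjusted p = 2.02e-12). *WRKY55* held between 0 and 8 counts in the libraries of the wild type at 0, 6 and 24 h, so its level there was close to the limit of detection. *WRKY53* shares 311 bases of exon with a neighbour on the other strand, and fragments on these bases were left out of its count.

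**Figure D3:**
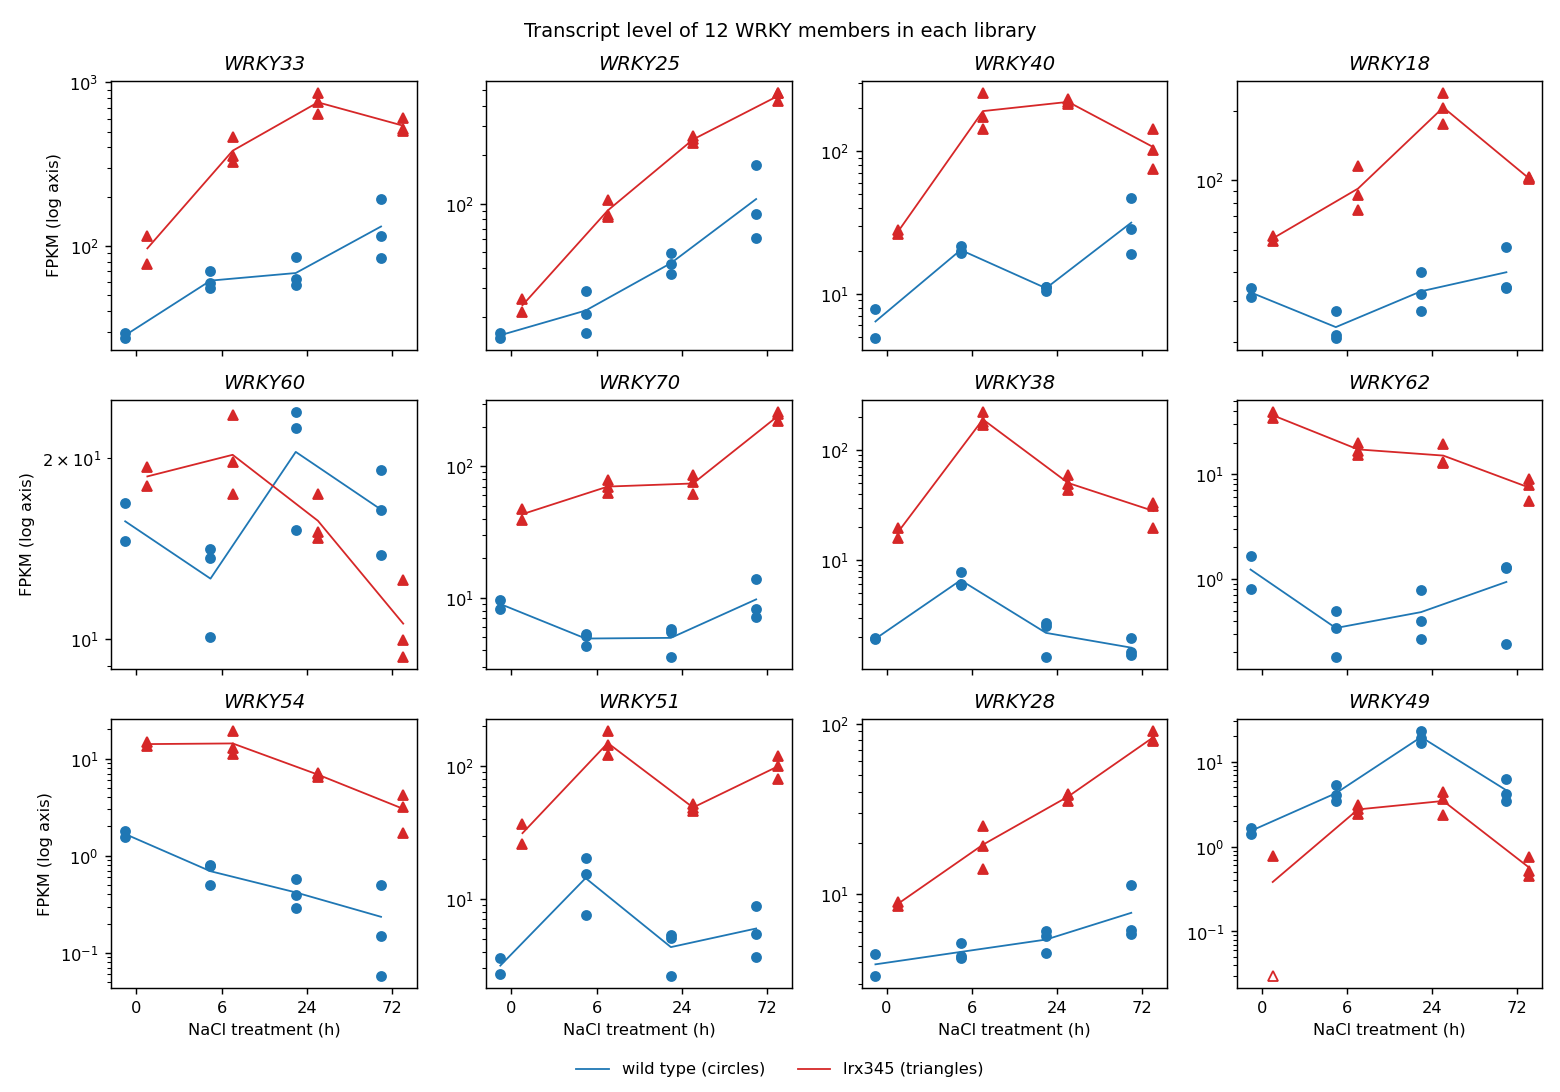
FPKM of 12 members on log axes (y, one scale per panel) at 0, 6, 24 and 72 h in NaCl (x). Each circle is a library of the wild type, each triangle one of *lrx345*, and lines join the group means. The open triangle of *WRKY49* is a library with 0 counts, drawn at the foot of the panel. *WRKY60* is the panel in which the genotypes cross, and in *WRKY49* the wild type lies above *lrx345*.

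Group IIa consists of *WRKY18* (AT4G31800), *WRKY40* (AT1G80840) and *WRKY60* (AT2G25000), whose proteins bind one another and act in defence and abscisic acid responses. *WRKY40* stood at 7.87 and 4.93 FPKM at 0 h, 21.7, 19.2 and 19.9 at 6 h, 11.2, 11.2 and 10.5 at 24 h, and 47.3, 28.4 and 19 at 72 h in the wild type. Its level in *lrx345* was 26.3 and 27.8 FPKM at 0 h, 255, 175 and 143 at 6 h, 230.5, 215 and 219 at 24 h, and 74.4, 144 and 102 at 72 h. Mutant libraries were above wild-type libraries at each time, with the widest gap at 24 h. The wild type changed by 1.67 (SE 0.33, adjusted p = 0.000325) from 0 h to 6 h and by 0.77 (SE 0.35, adjusted p = 0.0952) from 0 h to 24 h. It differed between genotypes by 2.08 (SE 0.35, adjusted p = 0.000123) at 0 h, 4.34 (SE 0.28, adjusted p = 9.32e-12) at 24 h and 1.75 (SE 0.24, adjusted p = 1.42e-06) at 72 h. *WRKY40* shares 51 bases of exon with a gene on the other strand, and counts there were left out.

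*WRKY18* stood at 31.2 and 34.3 FPKM at 0 h, 27.2, 21.5 and 20.9 at 6 h, 27.1, 40.1 and 32.1 at 24 h, and 51.3, 34.2 and 34.7 at 72 h in the wild type. The mutant had 54.7 and 57.3 FPKM at 0 h, 115, 86.6 and 74.4 at 6 h, 206, 176 and 238 at 24 h, and 101, 104 and 102 at 72 h. Levels in *lrx345* were above those of the wild type at every time and peaked at 24 h. The difference was 0.77 (SE 0.20, adjusted p = 0.00779) at 0 h, below the fold threshold, 1.98 (SE 0.17, adjusted p = 2.83e-09) at 6 h and 2.64 (SE 0.17, adjusted p = 9.64e-12) at 24 h. In the wild type, *WRKY18* moved by 0.01 (SE 0.19, adjusted p = 0.971) from 0 h to 24 h, and in *lrx345* it rose by 1.88 (SE 0.19, adjusted p = 1.93e-08).

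*WRKY60* behaved otherwise and stood at 14.5 and 16.8 FPKM at 0 h, 14.1, 10.1 and 13.6 at 6 h, 15.2, 22.4 and 23.8 at 24 h, and 13.8, 16.4 and 19.1 at 72 h in the wild type. The *lrx345* libraries gave 19.3 and 18 FPKM at 0 h, 23.6, 17.4 and 19.7 at 6 h, 17.4, 14.7 and 15.1 at 24 h, and 12.5, 9.95 and 9.34 at 72 h. The genotypes overlapped at 24 h, *lrx345* had the higher values at 0 h and 6 h, and the wild type had them at 72 h. Its difference was 0.67 (SE 0.16, adjusted p = 0.00258) at 6 h and -0.64 (SE 0.17, adjusted p = 0.00255) at 72 h, both under a fold of 2. No call was made for *WRKY60* in any of the 13 comparisons.

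Group I contains the member with the highest level in most groups of libraries. *WRKY33* (AT2G38470), needed for resistance to necrotrophic fungi and for camalexin synthesis and known from salt tolerance, had the highest mean FPKM over all libraries and in 7 of the 8 groups. In the wild type at 0 h it ranked 5, and *WRKY65* led there with 44 FPKM. *WRKY33* stood at 29.4 and 27.5 FPKM at 0 h, 70.2, 59 and 55.1 at 6 h, 57.3, 85.1 and 62.5 at 24 h, and 195, 115 and 84.5 at 72 h in the wild type. Mutant libraries held 78.1 and 115 FPKM at 0 h, 464, 327 and 354 at 6 h, 643, 763 and 857 at 24 h, and 507, 606 and 516 at 72 h. The genotypes did not overlap at any time, and the mutant libraries before treatment lay within the range of, or just under, those of the wild type after 72 h. *WRKY33* was higher in *lrx345* by 1.76 (SE 0.27, adjusted p = 4.69e-05) at 0 h, 2.64 (SE 0.23, adjusted p = 2.99e-09) at 6 h, 3.47 (SE 0.23, adjusted p = 2.25e-11) at 24 h and 2.04 (SE 0.22, adjusted p = 3.25e-08) at 72 h. At 24 h *WRKY33* made up 23.8% of the summed FPKM of the 58 members in *lrx345* and 7.84% in the wild type. Its exons share 26 bases with a gene on the other strand.

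*WRKY25* (AT2G30250), a group I member known from heat, salt and oxidative stress, had the second highest mean FPKM over all libraries. By group it ranked 2 in *lrx345* at 24 h and in both genotypes at 72 h, and ranked 17 in both at 0 h. It stood at 14.9 and 15.9 FPKM at 0 h, 28.9, 20.7 and 15.9 at 6 h, 36.5, 49.8 and 42.2 at 24 h, and 173, 86 and 61 at 72 h in the wild type. In the mutant, the values were 21.5 and 25.6 FPKM at 0 h, 105, 84.4 and 82.2 at 6 h, 260.4, 236 and 249 at 24 h, and 430.3, 478 and 479 at 72 h. The group means were ordered by time in both genotypes, and in the wild type at 72 h replicate 1 had the highest value. From 0 h to 6 h the change was 0.51 (SE 0.29, adjusted p = 0.172) in the wild type, and *WRKY25* rose by 1.94 (SE 0.29, adjusted p = 6.93e-06) in *lrx345*. At 0 h the difference was 0.61 (SE 0.31, adjusted p = 0.208) and was not past the test. It was 2.05 (SE 0.25, adjusted p = 7.39e-07) at 6 h and 2.54 (SE 0.25, adjusted p = 1.05e-08) at 24 h. By 72 h *WRKY25* rose by 2.79 (SE 0.30, adjusted p = 1e-07) in the wild type and in *lrx345* by 4.3 (SE 0.32, adjusted p = 5.12e-11). *WRKY26* (AT5G07100), which acts with both in heat responses, was higher in *lrx345* at 24 h only, by 1.69 (SE 0.10, adjusted p = 5.02e-12). The other 7 members of group I, *WRKY1*, *WRKY2*, *WRKY3*, *WRKY4*, *WRKY19*, *WRKY20* and *WRKY32*, had log2 fold changes between -0.28 and 0.53 between the genotypes.

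Group IIc is the largest, with 15 members, of which 6 were higher in *lrx345* at 0 h, 7 at 6 h, 8 at 24 h and 6 at 72 h. These were 40%, 46.7%, 53.3% and 40% of the group, beside 5.28%, 10.2%, 13.3% and 16.3% of all genes tested. *WRKY8* (AT5G46350), known from salt tolerance, where its protein is held back by a VQ-motif partner, stood at 0.878 and 0.537 FPKM at 0 h, 2.88, 1.36 and 1.15 at 6 h, 2.08, 2.63 and 2.79 at 24 h, and 6.38, 4.003 and 3.8 at 72 h in the wild type. The *lrx345* libraries stood at 3.69 and 3.71 FPKM at 0 h, 16.8, 9.43 and 9.32 at 6 h, 24.4, 17.3 and 24.4 at 24 h, and 40.3, 35.2 and 44.9 at 72 h. The group means were ordered by time in both genotypes, and the lowest mutant library at each time was above all wild-type libraries of that time. The log2 fold change was 2.38 (SE 0.46, adjusted p = 0.000606) at 0 h and 3.07 (SE 0.23, adjusted p = 9.21e-11) at 72 h. By 72 h *WRKY8* rose by 2.75 (SE 0.42, adjusted p = 1.11e-05) in the wild type and in *lrx345* by 3.44 (SE 0.28, adjusted p = 2.38e-10), and the difference of these changes was 0.69 (SE 0.59, adjusted p = 0.403). The rise in the wild type at 6 h, 1.38 (SE 0.49, adjusted p = 0.0276), was not past the test without replicate 1 (adjusted p = 0.0536) or the unnumbered library (adjusted p = 0.201) of the wild type at 0 h, or without its replicate 1 at 6 h (adjusted p = 0.228).

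*WRKY51* (AT5G64810) stood at 3.57 and 2.7 FPKM at 0 h, 20.2, 15.3 and 7.49 at 6 h, 2.63, 5.04 and 5.3 at 24 h, and 8.83, 5.44 and 3.65 at 72 h in the wild type. Its values in *lrx345* were 25.8 and 36.7 FPKM at 0 h, 183, 144 and 122 at 6 h, 45.9, 48.4 and 52.2 at 24 h, and 101, 80.2 and 119 at 72 h. Both genotypes had their highest mean at 6 h, and at each time all mutant libraries were above all wild-type ones. *WRKY51* was higher in *lrx345* by between 3.3 (SE 0.39, adjusted p = 1.33e-06) at 0 h and 4.04 (SE 0.28, adjusted p = 2.3e-11) at 72 h. *WRKY50* (AT5G26170), which shares its lysine codon in the heptad, differed by at most 0.94 (SE 0.24, adjusted p = 0.00312), under the fold threshold. *WRKY50* was 5.92 ± 1.91 FPKM in the wild type and 6.38 ± 0.361 in *lrx345* at 72 h (n = 3 each).

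*WRKY28* (AT4G18170), an activator of the SA synthesis gene *ICS1*, stood at 4.45 and 3.33 FPKM at 0 h, 5.22, 4.22 and 4.37 at 6 h, 4.53, 6.09 and 5.69 at 24 h, and 11.3, 6.22 and 5.88 at 72 h in the wild type. In *lrx345* the values were 8.56 and 8.999 FPKM at 0 h, 25.2, 19.3 and 14 at 6 h, 38.9, 38 and 35.3 at 24 h, and 80.3, 79.5 and 89.9 at 72 h. The mutant's level rose from 0 h to each later time, by 1.14, 2.09 and 3.25 on the log2 scale. Without replicate 1 of *lrx345* at 6 h the first of these was 0.93. *WRKY28* was higher in *lrx345* by 1.17 (SE 0.27, adjusted p = 0.0034) at 0 h, 2.78 (SE 0.20, adjusted p = 8.31e-11) at 24 h and 3.4 (SE 0.19, adjusted p = 4.51e-13) at 72 h. Its rise over 72 h in the wild type, 1.02 (SE 0.26, adjusted p = 0.00222), was just past the fold threshold and was 0.64 without replicate 1 of the wild type at 72 h and 0.83 (adjusted p = 0.0516) without the unnumbered library.

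*WRKY49* (AT5G43290) was the member with lower transcript levels in *lrx345*. It stood at 1.64 and 1.41 FPKM at 0 h, 5.3, 4.06 and 3.44 at 6 h, 22.9, 19.2 and 16.9 at 24 h, and 3.42, 4.19 and 6.26 at 72 h in the wild type. The mutant libraries gave 0.767 and 0 FPKM at 0 h, 2.76, 2.4 and 3.1 at 6 h, 2.39, 3.63 and 4.36 at 24 h, and 0.758, 0.446 and 0.517 at 72 h. The peak of the wild type at 24 h was far above the mutant at that time. The log2 fold change was -2.51 (SE 0.28, adjusted p = 7.67e-08) at 24 h and -3.03 (SE 0.41, adjusted p = 1.05e-06) at 72 h, and at 6 h it was -0.65 (SE 0.31, adjusted p = 0.103). At 0 h it was -1.79 (SE 0.58, adjusted p = 0.0328), but the mutant libraries held 13 and 0 counts. Without replicate 2 of *lrx345* at 0 h it was -0.98 (adjusted p = 0.289), without replicate 1 of the wild type -1.68 (adjusted p = 0.144) and without the unnumbered library -1.90 (adjusted p = 0.0828). By 24 h *WRKY49* rose by 3.67 (SE 0.34, adjusted p = 2.21e-08) in the wild type and in *lrx345* by 2.96 (SE 0.51, adjusted p = 3.44e-05). The latter was 2.20 (adjusted p = 0.000485) without replicate 2 of *lrx345* at 0 h, and without replicate 1 no count of *WRKY49* was left at 0 h, so that no fold change is given.

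*WRKY75* (AT5G13080), known from phosphate starvation and senescence, was higher in *lrx345* at all times, with 6.4 ± 0.422 FPKM in the wild type and 119 ± 22 in *lrx345* at 24 h (n = 3 each). Its log2 fold change there was 4.2 (SE 0.30, adjusted p = 4.36e-11). *WRKY48* (AT5G49520), a repressor of basal defence, was higher in *lrx345* by 2.0, 2.12 and 2.14 at 6, 24 and 72 h on the log2 scale. *WRKY45*, a regulator of phosphate uptake, passed both thresholds at 0 h and 24 h. *WRKY13*, a regulator of stem development and flowering, was higher by 1.91 at 6 h and 1.67 at 24 h. Its counterpart *WRKY12* was higher by 1.65 (SE 0.60, adjusted p = 0.0337) at 6 h, a call that was lost without replicate 1 or 3 of the wild type or replicate 2 or 3 of *lrx345* at 6 h, when the log2 fold change was between 1.25 and 1.75. *WRKY71* was called at 24 h only, and *WRKY23*, *WRKY43* and *WRKY57* at no time. *WRKY24* (AT5G41570), with between 0 and 39 counts per library, was higher at 0 h by 2.8 (SE 0.87, adjusted p = 0.0265), on 2 and 0 counts in the wild type and 7 and 8 in the mutant. That call was lost without replicate 2 of *lrx345*, at 2.51 (adjusted p = 0.148), or without the unnumbered library, at 1.88 (adjusted p = 0.238). Without replicate 3 of *lrx345* at 72 h, the call of *WRKY24* at that time was lost as well, at 1.03 (adjusted p = 0.0727).

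In group IIb, 2 of 6 members (33.3%) were higher in *lrx345* at 0, 6 and 24 h and 3 (50%) at 72 h. Beside these, 5.28%, 10.2%, 13.3% and 16.3% of all genes tested were higher at the 4 times. *WRKY6* (AT1G62300), known from senescence and phosphate transport, rose in *lrx345* from 30.5 ± 6.74 FPKM at 0 h (n = 2) to 148 ± 13.9 at 72 h (n = 3), and in the wild type from 13.8 ± 0.0589 to 33.8 ± 6.22. *WRKY31* (AT4G22070) was higher by 1.69 (SE 0.21, adjusted p = 2.65e-06) at 0 h and 3.41 (SE 0.15, adjusted p = 1.39e-14) at 72 h. *WRKY36* was called at 72 h only, and *WRKY9*, *WRKY42* and *WRKY47* at no time. *WRKY42*, which acts with *WRKY6* on phosphate transport, had log2 fold changes between -0.18 and 0.38.

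In group IId, whose proteins bind calmodulin, 1 of 7 members (14.3%) was called at 6 h, 2 (28.6%) at 24 h and 0 at 72 h. At these times 10.2%, 13.3% and 16.3% of all genes tested were higher. *WRKY17* (AT2G24570), a repressor of basal defence, was higher in *lrx345* by 1.36 (SE 0.12, adjusted p = 3.03e-09) at 6 h, and its partner in this role, *WRKY11*, by 1.3 (SE 0.09, adjusted p = 5.95e-11) at 24 h. *WRKY15*, known from osmotic and salt stress, was higher by 1.59 (SE 0.10, adjusted p = 3.9e-12) at 24 h. *WRKY7*, *WRKY21*, *WRKY39* and *WRKY74* were called at no time between genotypes. Of the 7 members, edgeR called 0 at 0 h, with 1 higher and 0 lower at an unadjusted p under 0.05 and 0 called by DESeq2. At 72 h both tools called 0 as well, with 5 higher and 0 lower at an unadjusted p under 0.05 in edgeR. Group IIe had 3 of 8 members called at 6 h, 2 at 24 h and 1 at 72 h. These were 37.5%, 25% and 12.5% of the group, beside 10.2%, 13.3% and 16.3% of all genes tested. Its share at 72 h was thus below that of all genes. For its 0 calls at 0 h, 2 were higher and 1 lower at an unadjusted p under 0.05, and DESeq2 called 0. *WRKY22* (AT4G01250) and *WRKY29* (AT4G23550) are known from signalling downstream of the flagellin receptor. *WRKY22* stood at 6.3 and 6.1 FPKM at 0 h, 8.4, 7.72 and 7.61 at 6 h, 11, 14.1 and 14.3 at 24 h, and 18.6, 11.8 and 8.15 at 72 h in the wild type. The *lrx345* libraries held 4.39 and 3.41 FPKM at 0 h, 34.1, 32.3 and 33.9 at 6 h, 74.2, 75.2 and 75.8 at 24 h, and 25.3, 25.5 and 24.8 at 72 h. Before treatment the values in the mutant were the lower ones, at -0.65 (SE 0.26, adjusted p = 0.0956), without passing either threshold. It was higher in *lrx345* by 2.08 (SE 0.17, adjusted p = 2.1e-09) after 6 h and by 2.51 (SE 0.16, adjusted p = 1.37e-11) after 24 h. *WRKY29* was higher by 2.37 (SE 0.20, adjusted p = 6.85e-10) at 72 h, and *WRKY69* by 1.76 and 1.58 at 6 h and 24 h. *WRKY14*, *WRKY16*, *WRKY27*, *WRKY35* and *WRKY65* were not called. *WRKY65* had the highest level of all members in the wild type at 0 h, 44 ± 0.646 FPKM (n = 2).

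From 0 h to 6 h in NaCl, 10 members (17.2%) rose and 3 (5.17%) fell in the wild type. Of all genes tested, 6.87% rose and 5.83% fell there. In *lrx345*, 19 (32.8%) rose and 2 (3.45%) fell, with 10.4% and 6.64% of all genes. From 0 h to 24 h, 9 (15.5%) rose and 1 (1.72%) fell in the wild type, with 4.85% and 3.16% of all genes. In *lrx345* the numbers were 21 (36.2%) and 3 (5.17%), with 12.6% and 8.18%. From 0 h to 72 h, 17 (29.3%) rose and 1 (1.72%) fell in the wild type, with 9.57% and 5.06%. The numbers in *lrx345* were 26 (44.8%) and 3 (5.17%), with 18.5% and 14%. In each of these comparisons the share of members that fell was below that of all genes. Without replicate 1 of the wild type at 72 h, 14 members rose in the wild type, and the calls of *WRKY22* (0.68), *WRKY28* (0.64) and *WRKY46* (0.73) were lost. Without its replicate 3, 18 members rose. The members that fell in the wild type were *WRKY12*, *WRKY54* and *WRKY62* at 6 h and *WRKY54* at 24 h and 72 h. In *lrx345* they were *WRKY62* and *WRKY74* at 6 h, *WRKY54*, *WRKY62* and *WRKY74* at 24 h, and *WRKY50*, *WRKY54* and *WRKY62* at 72 h. The 3 falls in the wild type at 6 h rested on single libraries. *WRKY12* was not past the test without either library at 0 h or replicate 1 or 3 at 6 h (adjusted p = 0.057 to 0.309). *WRKY54* was not without either library at 0 h or replicate 3 at 6 h (adjusted p = 0.0534 to 0.113), and *WRKY62* not without the unnumbered library or replicate 2 or 3 at 6 h (adjusted p = 0.0508 to 0.293). The fall of *WRKY74* in *lrx345* was not past the test without replicate 1 at 0 h, neither at 6 h (adjusted p = 0.095) nor at 24 h (adjusted p = 0.144). At 24 h it was not past the test without replicate 2 at 0 h (adjusted p = 0.077) or replicate 2 (adjusted p = 0.0841) or 3 (adjusted p = 0.108) at 24 h either. The fall of *WRKY50* had a log2 fold change between -0.999 and -0.97 without replicate 1 at 0 h or replicate 2 or 3 at 72 h. The transcripts of *CCA1*, a gene of the clock that peaks in the morning, stood at 1.38 and 1.56 FPKM at 0 h, 3.8, 2.99 and 4.24 at 6 h, 72.5, 79.6 and 66.9 at 24 h, and 89.99, 96.5 and 97 at 72 h in the wild type. Mutant libraries had 1.21 and 0.924 FPKM at 0 h, 5.66, 6.15 and 5.96 at 6 h, 60.6, 63.2 and 51.5 at 24 h, and 91, 88.4 and 92.7 at 72 h. The part of the time of day in the changes from 0 h was not tested.

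Whether the gap between genotypes moved over time was tested as the log2 fold change at a later time minus that at 0 h. At 6 h, 10 members (17.2%) had a larger difference than at 0 h and 1 (1.72%) a smaller one, where 3.18% and 1.51% of all genes had. At 24 h, the numbers were 13 (22.4%) and 1 (1.72%), with 5.21% and 3.27% of all genes. At 72 h they were 8 (13.8%) and 2 (3.45%), with 8.43% and 6.81%. Without replicate 1 of the wild type at 72 h the last numbers were 11 and 1, and without its replicate 3 they were 8 and 2. *WRKY22*, *WRKY25*, *WRKY48* and *WRKY70* had a larger difference at all 3 later times. The call of *WRKY25* at 6 h was lost without either wild-type library or replicate 1 of *lrx345* at 0 h, replicate 2 or 3 of the wild type at 6 h or replicate 1 of *lrx345* at 6 h, with a log2 value between 1.25 and 1.48 (adjusted p = 0.0507 to 0.11). For *WRKY70* the difference grew by 1.65 (SE 0.30, adjusted p = 0.000471) at 24 h and 2.36 (SE 0.28, adjusted p = 1.14e-06) at 72 h, and for *WRKY22* by 2.73 (SE 0.32, adjusted p = 3.86e-06) at 6 h and 3.17 (SE 0.31, adjusted p = 1.84e-07) at 24 h. For *WRKY33*, it grew by 1.7 (SE 0.35, adjusted p = 0.00119) at 24 h and was 0.28 (SE 0.34, adjusted p = 0.576) at 72 h. *WRKY40* likewise had 2.26 (SE 0.45, adjusted p = 0.000943) at 24 h and -0.32 (SE 0.42, adjusted p = 0.608) at 72 h. The difference of *WRKY51*, *WRKY54* and *WRKY8* was called at 0 h, and its change from there passed the test at no later time.

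**Figure D4:**
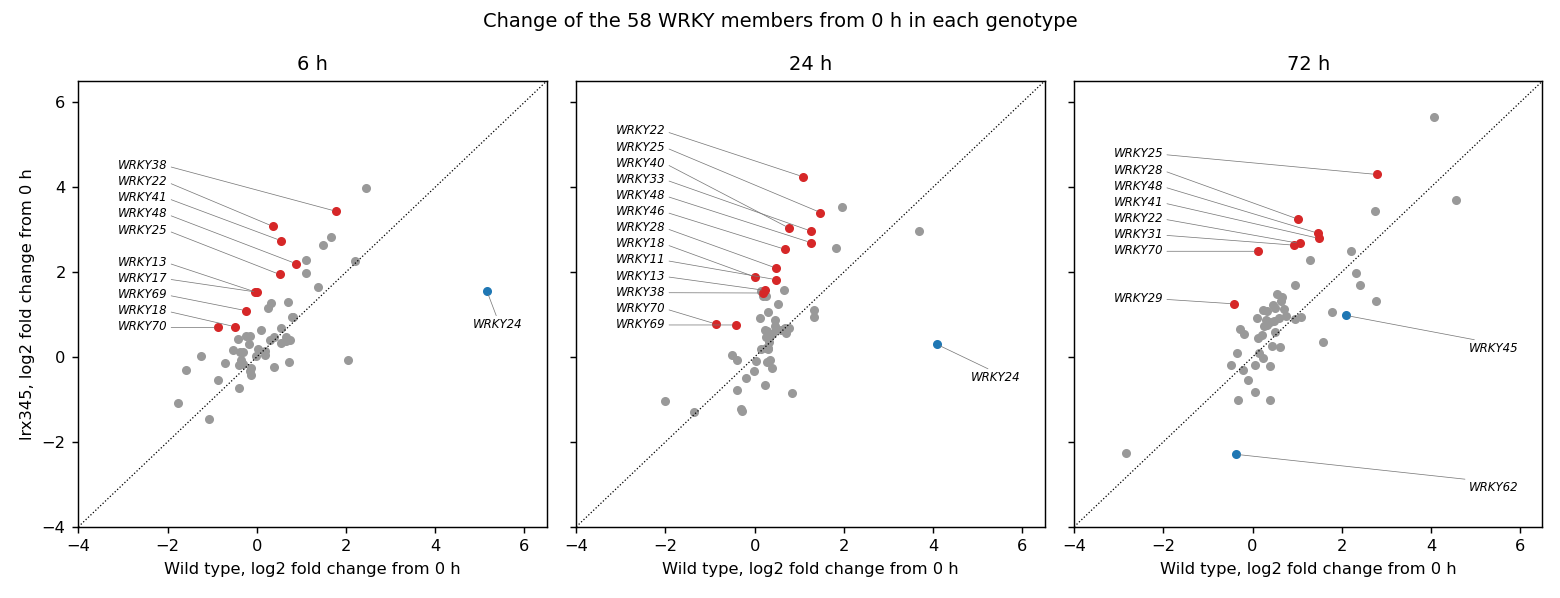
Log2 fold change from 0 h of the 58 members in the wild type (x) and in *lrx345* (y) at 6, 24 and 72 h. Each point is a member, and the dotted line marks equal changes. Named members in red had a larger and those in blue a smaller genotype difference than at 0 h (adjusted p under 0.05 and fold above 2). Red points number 10 at 6 h, 13 at 24 h and 8 at 72 h.

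Summed over all 58 members, the FPKM was 643 ± 10.9 in the wild type and 1073 ± 78.1 in *lrx345* at 0 h (n = 2 each). The sums of the genotypes were 755 ± 62.7 and 2364 ± 332 after 6 h, 871 ± 62.2 and 3174 ± 161 after 24 h, and 1183 ± 218 and 3399.7 ± 70.5 after 72 h (n = 3 each). Without *WRKY33* and *WRKY25*, the remaining 0 h sums came to 599 ± 11.5 and 953 ± 48.9, and those at 72 h to 945 ± 104 and 2394 ± 129.9, so that the order of the genotypes did not rest on these members. The order of the levels differed with both genotype and time. In the wild type *WRKY65*, *WRKY15* and *WRKY11* led at 0 h, and *WRKY33*, *WRKY25* and *WRKY15* at 72 h. In *lrx345* the leading members were *WRKY33*, *WRKY15* and *WRKY18* at 0 h, and *WRKY33*, *WRKY25* and *WRKY70* at 72 h.

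Markers of leaf, root and senescing tissue moved with the genotype. The summed FPKM of 5 leaf markers was 9571 to 10775 in the wild type and 4592 to 5455 in *lrx345* at 72 h, and 3 of the 5 were lower there. Of 6 root markers, 3 were lower in *lrx345* at 6, 24 and 72 h, namely *CASP1*, *COBL9* and *EXPA7*, and 1 was higher at 6 h, *RHD6*. The sum of the root markers at 24 h was 87.1 to 92.5 in the wild type and 36.0 to 45.4 in *lrx345*. Of all genes tested, 1.94%, 4.77% and 8.27% were lower in *lrx345* at 6, 24 and 72 h, and 10.2%, 13.3% and 16.3% were higher. Of the markers of senescing tissue, *SAG13* was higher in *lrx345* at all 4 times. It stood at 0.42 and 0.616 FPKM at 0 h, 1.02, 1.17 and 0.794 at 6 h, 1.73, 1.26 and 1.53 at 24 h, and 25.6, 11.1 and 10.6 at 72 h in the wild type. Its values in *lrx345* were 18.4 and 28.2 FPKM at 0 h, 52.1, 39.8 and 38.1 at 6 h, 154, 88.7 and 110.2 at 24 h, and 126, 80.3 and 123 at 72 h. *SAG101* was called higher at 24 h and *SAG12* had too few counts to be tested. The part of these tissues in the levels of the members was not tested. At 0 h, edgeR and DESeq2 each called 0 of the 5 leaf and 0 of the 6 root markers. Of the 2 tested markers of senescing tissue, each tool called 1 higher at 0 h. Among all genes tested, 5.28% were higher and 1.14% lower at that time. At an unadjusted p under 0.05, all 5 leaf markers were lower in *lrx345* at 0 h and 0 root markers differed.

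Genes that act with the family were examined from a list of 21, of which all but *ABI4* could be tested. The VQ-motif proteins bind WRKY proteins. Of 4 such genes, *SIB1*, a partner of WRKY33, was higher in *lrx345* by 2.68 (SE 0.41, adjusted p = 3.3e-05) at 0 h and 2.9 (SE 0.23, adjusted p = 2.05e-10) at 72 h, and *JAV1* by 1.49 to 2.04 over the 4 times. *MKS1*, which links MPK4 to WRKY33, was called at 6 h and later, with 8.66 ± 1.4 FPKM in the wild type and 41.6 ± 4.61 in *lrx345* at 6 h (n = 3 each). *SIB2* was called at 0 h and 24 h. Of 8 genes of the MAP kinase cascades that phosphorylate WRKY proteins, *MPK3* was higher in *lrx345* by 1.42 (SE 0.11, adjusted p = 8.93e-10) at 6 h and 2.11 (SE 0.11, adjusted p = 6.62e-13) at 24 h, and *MKK1* by 1.1 (SE 0.14, adjusted p = 2.38e-06) at 0 h. *MEKK1*, *MKK2*, *MKK4*, *MKK5*, *MPK4* and *MPK6* passed both thresholds at no time, with log2 fold changes between -0.23 and 0.87. *NPR1*, the SA receptor through which *WRKY* genes are induced, differed by 0.53 to 0.90, under the fold threshold at each time.

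Among known targets, the camalexin genes *PAD3* and *CYP71A13*, which WRKY33 activates, were higher in *lrx345* at all times. *PAD3* stood at 7.35 and 6.39 FPKM at 0 h, 4.95, 4.76 and 4.18 at 6 h, 5.67, 5.48 and 6.27 at 24 h, and 30.9, 11.8 and 9.68 at 72 h in the wild type. The values of *lrx345* were 85.8 and 153 FPKM at 0 h, 34.9, 28.2 and 26.7 at 6 h, 280.0, 173 and 193 at 24 h, and 53.6, 52.3 and 52.1 at 72 h. Libraries varied widely for this gene in *lrx345* at 0 h and 24 h and in the wild type at 72 h. From 0 h to 6 h *PAD3* fell by 2.0 (SE 0.29, adjusted p = 5.13e-06) in the mutant, whereas *WRKY33* rose by 1.98 (SE 0.26, adjusted p = 9.74e-07). The log2 fold change of *PAD3* was 4.11 (SE 0.38, adjusted p = 2.17e-08) at 0 h and 2.68 (SE 0.32, adjusted p = 5.56e-07) at 6 h. *ICS1*, the SA synthesis gene, was higher by 1.05 (SE 0.13, adjusted p = 1.94e-06) at 0 h and 1.85 (SE 0.10, adjusted p = 9.47e-13) at 24 h and differed by 0.14 (SE 0.11, adjusted p = 0.28) at 72 h. The SA marker *PR1* was higher by 6.36 (SE 0.41, adjusted p = 1e-10) at 0 h and differed by -0.10 (SE 0.28, adjusted p = 0.787) at 72 h. *ABI5*, repressed by WRKY40, was called at 72 h only, with 1.47, and the phosphate transporter genes *PHO1* and *PHT1;1* passed both thresholds at no time. Over the 20 genes tested, 8 were higher at 0 h, 8 at 6 h, 9 at 24 h and 6 at 72 h (40%, 40%, 45% and 30%). The shares of all genes tested that were higher at these times were 5.28%, 10.2%, 13.3% and 16.3%.

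The W-box core, TTGAC on either strand, was counted in the 250 bases upstream of each gene start. It was found at least once for 34 of the 58 members (58.6%) and for 45.2% of all genes tested with a full window (9825 of 21714). At least 2 cores were found for 27.6% of the members and 14% of all genes. Of the 13 members higher in *lrx345* at all 4 times, 8 had a core (61.5%) and 1, *WRKY33*, had 2. Of the 20 members higher at 1 to 3 times, 14 had a core (70%) and 7 had at least 2 (35%). Of the 24 members called at no time, 12 had a core (50%) and 8 had at least 2 (33.3%). The members with the most cores were *WRKY7*, with 5, and *WRKY12*, with 4. A match describes these letters in this window and was not tested for binding.

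**Figure D5:**
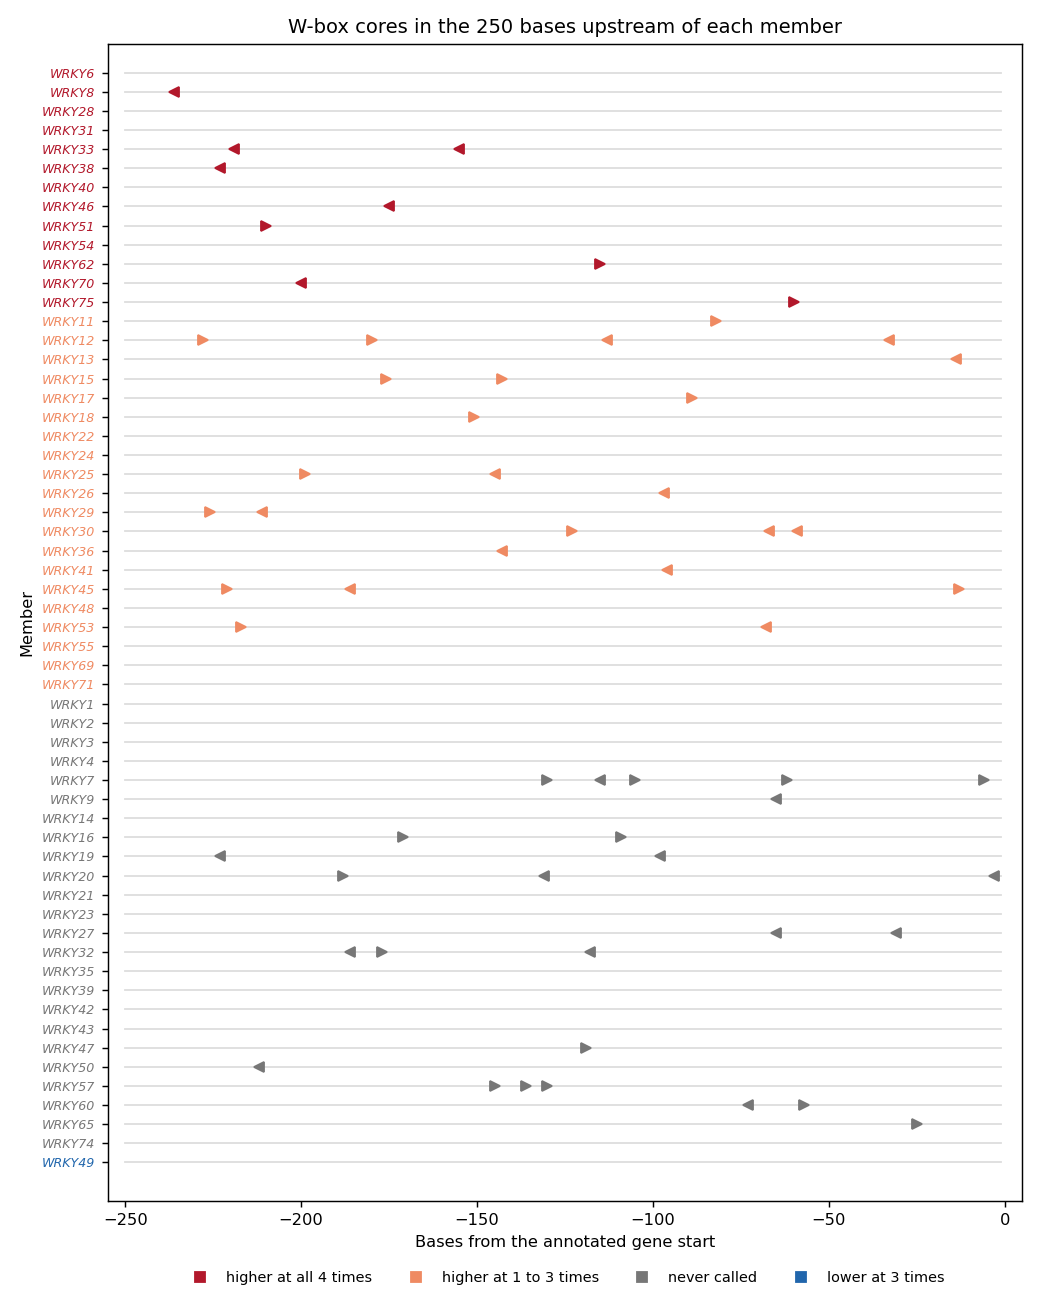
Positions of the W-box core in the 250 bases upstream of each of the 58 members (rows), in bases from the annotated gene start. Arrows pointing right are cores on the strand of the gene and arrows pointing left are cores on the other strand. Colours mark members higher in *lrx345* at all 4 times, higher at 1 to 3 times, called at no time, and lower. Cores were found for 8 of the 13 members in the top block, 14 of the 20 in the next and 12 of the 24 called at no time.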

How the data were processed

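Per the submitters' processing notes and the study's methods, paired-end reads of 22 RNA libraries were aligned to TAIR10 with TopHat2, and FastQC was also used. The authors deposited featureCounts 1.4.6 counts of fragments on the exons of each gene, not normalised. Strand was not used, and fragments that matched several places or overlapped several genes were left out. The authors' own test, cuffdiff, was not run. Of the 22 columns, 21 were matched to a sample by name. The other was matched to its group only, the wild type at 0 h, because no label of that group gives its replicate number, and is called unnumbered. The study's methods state 3 biological replicates for seedlings before and after 6 h in NaCl, whereas each genotype had 2 libraries at 0 h here. The methods do not describe the seedlings of 24 h and 72 h. Whether the spread of those libraries is biological or technical is therefore not stated.

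Counts were fitted with edgeR 4.0.16 in R 4.3.3 (filterByExpr, TMM factors, glmQLFit and glmQLFTest, 1 mean for each of the 8 groups), and p-values were adjusted over the 21831 genes tested. DESeq2 1.42.0 was an alternative. The procedure was tested on simulated counts. Only genes with a mean count of at least 50 were changed there, by more than the fold threshold. That test therefore does not cover members with few counts or folds close to 2. The SE is the log2 fold change divided by the root of F. FPKM values were computed from these counts and the exon lengths in the deposited file. Same-group libraries differed beyond sampling noise in all 20 pairs (chi-square per degree of freedom 2.46 to 14.5). Library totals between 7413461 and 15047080 set the precision of low counts.

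Sequences were read from RefSeq's TAIR10.1 assembly with Biopython 1.88, whose chromosomes carry the coordinates of the files (159 of the members' 163 introns by file coordinates begin with GT and end with AG). Gene starts are those of the files. The RefSeq gene models give the same start and end for 1 of the 58 members. The upstream windows and their W-box counts therefore rest on the gene starts used here. Upstream sequences are shown for 6 members. Values per library are given for *WRKY8* and *WRKY70*, group IIa, *WRKY33*, and by rule for the 3 called members with the largest fold change in each direction at each time (mean count of at least 50, no overlap), the 3 largest called interactions at 72 h and the 3 highest mean FPKM. *WRKY22*, outside this rule, was chosen after its values were seen. Members, lists and markers were chosen with earlier results of these data known.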

Additional observations from a re-analysis of the deposited data

Results flagged for a closer look

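The results below are those in which the difference between *lrx345* and the wild type at a later time differed from that at 0 h, by the interaction term of the model across all genes in edgeR (adjusted p under 0.05 and a difference of more than 1 on the log2 scale). There were 35 such results for 20 members. Each value is the log2 difference between genotypes at the later time minus that at 0 h. All later times share the libraries at 0 h, of which there were 2 for each genotype.

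At 6 h, *WRKY22* had the largest value, 2.73 (SE 0.32, adjusted p = 3.86e-06), followed by *WRKY41* of group III with 2.2 (SE 0.46, adjusted p = 0.00271). The SA-responsive *WRKY38* and *WRKY70* had 1.65 (SE 0.40, adjusted p = 0.00867) and 1.57 (SE 0.30, adjusted p = 0.00125). *WRKY13* had 1.57 (SE 0.43, adjusted p = 0.0223) and *WRKY17* 1.51 (SE 0.19, adjusted p = 9.34e-06). The values were 1.43 (SE 0.40, adjusted p = 0.0252) for *WRKY25* and 1.34 (SE 0.19, adjusted p = 4.56e-05) for *WRKY69*. *WRKY48* had 1.32 (SE 0.24, adjusted p = 0.000857) and *WRKY18* 1.21 (SE 0.26, adjusted p = 0.0038). *WRKY24*, whose wild-type libraries held 2 and 0 counts at 0 h, had -3.62 (SE 0.92, adjusted p = 0.0143). Of these, *WRKY38* was not past the test without replicate 1 (adjusted p = 0.0674) or the unnumbered library (adjusted p = 0.0734) of the wild type at 0 h. *WRKY13* was not without the unnumbered library (adjusted p = 0.146), replicate 1 of *lrx345* at 0 h (adjusted p = 0.108) or replicate 2 of the wild type at 6 h (adjusted p = 0.0528). *WRKY24* was not without the unnumbered library (adjusted p = 0.12) or replicate 2 of *lrx345* at 0 h (adjusted p = 0.0783), *WRKY18* had 0.99 without replicate 1 of *lrx345* at 6 h, and *WRKY25* was lost without any of the 6 libraries named above.

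At 24 h, *WRKY22* again had the largest value, 3.17 (SE 0.31, adjusted p = 1.84e-07), and *WRKY40* had 2.26 (SE 0.45, adjusted p = 0.000943). *WRKY25* had 1.93 (SE 0.40, adjusted p = 0.00135) and *WRKY18* 1.87 (SE 0.26, adjusted p = 1.86e-05). For *WRKY46* the value was 1.86 (SE 0.39, adjusted p = 0.00148), for *WRKY33* 1.7 (SE 0.35, adjusted p = 0.00119). *WRKY70* had 1.65 (SE 0.30, adjusted p = 0.000471) and *WRKY28* 1.61 (SE 0.35, adjusted p = 0.0022). For *WRKY48* it was 1.44 (SE 0.24, adjusted p = 0.000178) and for *WRKY11* 1.34 (SE 0.15, adjusted p = 9.41e-07). The smallest increases were 1.33 (SE 0.43, adjusted p = 0.0346) for *WRKY13*, 1.31 (SE 0.43, adjusted p = 0.0359) for *WRKY38* and 1.17 (SE 0.19, adjusted p = 0.000151) for *WRKY69*. *WRKY24* had -3.79 (SE 0.98, adjusted p = 0.00865), and was not past the test without the unnumbered library (adjusted p = 0.0683). *WRKY13* was not past it without either wild-type library or replicate 1 of *lrx345* at 0 h, or without replicate 1 or 3 of the wild type or replicate 2 or 3 of *lrx345* at 24 h (adjusted p = 0.0556 to 0.175). *WRKY38* was not without either wild-type library or replicate 1 of *lrx345* at 0 h, replicate 2 of the wild type at 24 h or replicate 3 of *lrx345* at 24 h (adjusted p = 0.06 to 0.132).

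At 72 h, the SA-related *WRKY70* and *WRKY28* led with 2.36 (SE 0.28, adjusted p = 1.14e-06) and 2.23 (SE 0.34, adjusted p = 2.49e-05). *WRKY31* had 1.71 (SE 0.27, adjusted p = 3.27e-05) and *WRKY29* 1.67 (SE 0.32, adjusted p = 0.000293). The value was 1.61 (SE 0.31, adjusted p = 0.00035) for *WRKY22*, 1.5 (SE 0.39, adjusted p = 0.00486) for *WRKY25* and 1.45 (SE 0.24, adjusted p = 6.14e-05) for *WRKY48*. *WRKY41* had 1.31 (SE 0.44, adjusted p = 0.0257), which was not past the test without either wild-type library or replicate 2 of *lrx345* at 0 h, or replicate 3 of the wild type at 72 h (adjusted p = 0.0514 to 0.135). The difference was smaller than at 0 h for *WRKY45*, at -1.11 (SE 0.25, adjusted p = 0.0014), and for *WRKY62*, at -1.92 (SE 0.55, adjusted p = 0.00998). Without replicate 1 of the wild type at 72 h, *WRKY45* had -0.83 and *WRKY62* -1.57 (adjusted p = 0.0712), and both calls were lost. *WRKY45* had -0.97 without replicate 2 of *lrx345* at 0 h, and *WRKY62* had -1.501 (adjusted p = 0.0693) without replicate 1 of the wild type at 0 h.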

How the results depend on the processing

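The alternatives were DESeq2 with its size factors, upper-quartile factors, no filter on low counts, a filter at a mean count of 20, only the compared groups in the fit, the adjusted p without a fold threshold, a replicate block, and leaving out each library in turn. No named value changed its direction under any of them. Of the 94 calls between genotypes, 87 held under every alternative in which the member was tested, as did 30 of 41 calls over time in the wild type, 59 of 74 in *lrx345* and 24 of 35 changes of the genotype difference. Among those that held, *WRKY55* between genotypes at 24 h and *WRKY24* in the wild type at 6 h and 24 h were each not tested under 1 alternative. With the adjusted p alone, 44 members were higher and 3 lower in *lrx345* at 72 h, 4 were lower at 24 h and 2 at 6 h. DESeq2 and the fit without a filter each had 2 members falling by 24 h in the wild type, and upper-quartile factors gave 2 lower in *lrx345* at 24 h. With a mean count of at least 20, 1 member was lower in *lrx345* at 6 h against 0 h, 1 at 24 h against 0 h, and 0 had a smaller genotype difference at 6 h or 24 h than at 0 h, since *WRKY74* and *WRKY24* had too few counts to be tested. *WRKY54* in *lrx345* at 24 h was tested there and had -0.99 (adjusted p = 0.00241), under the fold threshold. With only the compared groups, 0 members were lower in *lrx345* at 0 h (adjusted p = 0.106 for *WRKY49*).

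With 1 library left out, the members higher in *lrx345* numbered 14 to 17 at 0 h, 25 to 27 at 6 h, 27 to 28 at 24 h and 21 to 24 at 72 h, and those lower 0 to 1, 0 to 0, 1 to 2 and 1 to 2. In the wild type 7 to 10, 8 to 9 and 14 to 18 members rose by 6, 24 and 72 h and 0 to 2, 1 to 1 and 1 to 1 fell. In *lrx345* 18 to 21, 21 to 23 and 25 to 28 rose and 1 to 2, 1 to 3 and 2 to 3 fell. The genotype difference was larger than at 0 h for 7 to 13, 11 to 15 and 7 to 12 members and smaller for 0 to 1, 0 to 2 and 1 to 3. Without replicate 1 of the wild type at 72 h, 11 members had a larger difference at 72 h, where the fit to all libraries gave 8.

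Of 64 pairs of libraries with the same replicate number in different groups, 3 had a correlation of their deviations above 0.1 (median 0.01, range -0.24 to 0.19). Pairs with different numbers were not compared, so these values do not decide whether the numbers pair the libraries. With the replicate block, and without the unnumbered library, 16, 25, 27 and 22 members were higher in *lrx345* at the 4 times and 0 were lower at 0 h. In that fit 0 members fell in the wild type at 6 h, and 0 had a smaller genotype difference at 6 h or at 24 h. These calls were also lost without the unnumbered library and with no block. Members with few counts limit the depth of these results: 9 members, *WRKY12*, *WRKY24*, *WRKY42*, *WRKY43*, *WRKY49*, *WRKY54*, *WRKY55*, *WRKY62* and *WRKY74*, had libraries under 10 counts.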

Other observations

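The SA marker *PR1* and the SA-responsive *WRKY70* had unlike time courses in these libraries. *PR1* stood at 3.31 and 10.3 FPKM at 0 h, 6.14, 3.85 and 1.98 at 6 h, 9.37, 9.07 and 7.15 at 24 h, and 26.7, 50.1 and 33.1 at 72 h in the wild type. In the mutant it stood at 489 and 639 FPKM at 0 h, 579.8, 358 and 457 at 6 h, 372, 285 and 351 at 24 h, and 34.2, 22.5 and 46.1 at 72 h. All wild-type libraries were below all mutant libraries at 0 h, whereas the ranges of the genotypes overlapped at 72 h. The difference between genotypes changed from 0 h to 72 h by -6.46 (SE 0.48, adjusted p = 8.3e-10) for *PR1* and by 2.36 (SE 0.28, adjusted p = 1.14e-06) for *WRKY70*, by edgeR across all genes.

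*WRKY30* was among the members with the widest range over time. It stood at 1.23 and 1.2 FPKM at 0 h, 8.54, 5.03 and 6.29 at 6 h, 4.43, 5.2 and 4.52 at 24 h, and 32.4, 17.5 and 10.9 at 72 h in the wild type. The *lrx345* libraries held 1.8 and 3.23 FPKM at 0 h, 43.7, 32.8 and 39.6 at 6 h, 27.7, 26.7 and 30.1 at 24 h, and 120.0, 116 and 131 at 72 h. Both genotypes rose at each later time against 0 h, and the wild-type libraries at 72 h lay apart from one another. *WRKY75* rose in the wild type by 72 h, by 2.41 (SE 0.35, adjusted p = 5.57e-06), and had 0.14 (SE 0.41, adjusted p = 0.827) at 24 h, while in *lrx345* it rose by 1.56 (SE 0.27, adjusted p = 4.49e-05) at 24 h. *WRKY30* and *WRKY75* were singled out here after their values were seen.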
